A study of Mus musculus with 24 samples.

Results

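The red cell membrane and cytoskeleton genes described here are 8 genes, Slc4a1, Epb42, Ank1, Sptb, Epb41, Rhag, Rhd and Kel. They were chosen by gene name in the array annotation, where older spellings such as Epb4.2 and Epb4.1 were taken as the same genes. All 8 of 8 were found among 37008 gene names, and they were measured by 20 of the array's 56605 probes. No measured value entered the choice by name, although the list was drawn up with earlier results of these data known.

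The study followed bone marrow and liver of male mice after blood was taken from behind the eye. Every mouse, the unbled controls included, carried the Erfe-/- genotype and so lacked erythroferrone, the hormone by which erythroblasts lower hepcidin. Total RNA of each tissue was collected at 0 h (labelled control), 24 h and 48 h (labelled phlebotomy), with 4 mice per time, and each sample was hybridised to its own one-colour Agilent array. There were thus 12 marrow and 12 liver arrays, and no wild-type mouse is among them, so whether the response depends on the genotype was not tested.

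The red cell membrane is a lipid bilayer tied to a flexible protein mesh beneath it. Band 3, the chloride and bicarbonate exchanger encoded by Slc4a1, is its main integral protein and the point to which the mesh is moored, through ankyrin (Ank1) and protein 4.2 (Epb42). The mesh itself is built of spectrin tetramers whose ends meet at actin junctions held by protein 4.1. Loss of band 3, ankyrin, protein 4.2 or spectrin is known to cause spherocytosis, and erythroblasts in the marrow switch these genes on as they mature.

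For 6 of the 8 genes RefSeq gave the window from 250 bases before to 50 bases after a transcription start (build GRCm38.p6), with 8 windows in all. Slc4a1 and Ank1 were not matched. Each of the 6 genes had a GATA hexamer in at least 1 window, 7 of 8 windows in all, against 29.8% of 32851 mouse windows of the same length. The hexamers searched, on both strands, were AGATAA with its variant TGATAA and the forms AGATAG and also TGATAG, counted together. The box CACCC was present in 4 of 8 windows against 57.5%, and CANNTG in 6 of 8 against 72.3%. A match describes letters in a window and is not a measured binding site. The 150 bases before the start are shown for the member that passed the test in marrow, Rhag, and for 2 other blood group genes with a hexamer close to the start, with the hexamers in capitals.
Rhag upstream: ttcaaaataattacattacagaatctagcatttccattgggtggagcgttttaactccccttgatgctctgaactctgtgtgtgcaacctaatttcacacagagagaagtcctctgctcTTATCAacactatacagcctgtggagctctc
Rhd upstream: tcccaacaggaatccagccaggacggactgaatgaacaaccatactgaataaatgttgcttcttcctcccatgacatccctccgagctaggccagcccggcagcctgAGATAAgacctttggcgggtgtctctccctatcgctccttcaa
Kel upstream: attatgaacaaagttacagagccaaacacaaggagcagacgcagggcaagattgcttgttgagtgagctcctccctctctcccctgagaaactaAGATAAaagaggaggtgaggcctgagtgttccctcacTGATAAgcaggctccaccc
The Rhag stretch is chr17:40810999-40811148 on the plus strand, and its hexamer, TGATAA on the opposite strand, begins 31 bases before the start. For Rhd (chr4:134864386-134864535, plus strand) the AGATAA begins 43 bases before the start. Kel (chr6:41704326-41704475, minus strand) had 2 hexamers, at 56 and 19 bases before the start.

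Probes inside coding sequence are shown next because they mark which part of a message was read. Each is a 60-base probe with mm9 coordinates from the array design. Capitals mark, in the first Epb41 probe, an ATG at bases 7 to 9 from which no stop codon follows in frame, and in the second a TGA at bases 58 to 60 that closes an open frame.
Epb41 5' probe: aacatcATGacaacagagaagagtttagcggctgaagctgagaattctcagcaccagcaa
Epb41 3' coding probe: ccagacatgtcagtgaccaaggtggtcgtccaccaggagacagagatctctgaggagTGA
Ank1 junction probe 1: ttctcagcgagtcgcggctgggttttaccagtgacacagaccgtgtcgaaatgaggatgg
Ank1 junction probe 2: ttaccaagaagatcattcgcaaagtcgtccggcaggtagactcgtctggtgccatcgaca
Rhd coding probe: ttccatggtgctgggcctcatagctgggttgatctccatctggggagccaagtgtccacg
Kel coding probe: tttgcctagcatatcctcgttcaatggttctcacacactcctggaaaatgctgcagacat
The Epb41 pair lies at chr4:131563293-131563352 and chr4:131482425-131482484, both on the minus strand. The Ank1 probes span 346 bases (chr8:24231065-24231410) and 995 bases (chr8:24250690-24251684) of the plus strand for 60 bases of probe, so each crosses an intron. The Rhd probe lies at chr4:134441242-134441301 on the plus strand and the Kel probe at chr6:41637969-41638028 on the minus strand.

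A level is the log2 of an array's processed signal minus the log2 of that array's 75th percentile, so 0 stands for the 75th percentile. Levels of different probes are not compared with each other. Changes are differences of mean levels on the log2 scale from a limma fit over all genes tested in a tissue, and a gene is said to have risen or fallen where its Benjamini-Hochberg adjusted p was under 0.05. The gene's value comes from 1 main probe, the one with the highest mean, and the other probes are given separately.

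The 75th percentile signal ran from 715.0 to 954.7 in marrow and from 361.2 to 473.1 in liver, and 32368 to 35771 probes per marrow array and 28079 to 34499 per liver array were well above background. The 2 Erfe probes were well above background in 1 of 24 spots in marrow and in 0 of 24 in liver, although the labels do not say which part of the gene is deleted. The marrow array at 24 h replicate 2 stood apart by its liver transcripts, with a summed level of 12 hepatocyte markers of 1261 against 1.9 to 4.7 on the other marrow arrays. Without it the members called at 24 h were still 0 and the Rhag call at 48 h held (limma adjusted p 0.0412). Among liver arrays, 0 h replicate 4 had the highest summed neutrophil level (34.6), and it recurs in the liver results. The arrays of both tissues lay on the same 3 slides, every one with all 3 times of each tissue.

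In unbled mice the mean level of all 8 genes was higher in marrow than in liver. Slc4a1 and Epb41, whose main probes were well above background on every array of both tissues, were called higher in marrow in the limma fit over both tissues (80.2% of 22781 genes were called there, and 39.6% were called higher in marrow). The main probes of the other 6 entered that fit through marrow, where they are high, so their calls are not counted. Slc4a1 stood 792-fold higher in marrow, with means of 6.94 and -2.69 and all 4 arrays well above background in each tissue. That liver mean took in 0 h replicate 4 at -1.01, where the other unbled livers read from -3.46 to -2.88. Folds between the tissues are of levels relative to each array's own 75th percentile, whose signal was higher in marrow. Epb41, which many cell types other than red cells express, differed least, with means of 6.79 and 4.23, 5.89-fold. The main probes of Epb42, Sptb, Ank1 and Rhag were not well above background on any of the 4 unbled liver arrays. Their differences are bounds, with the liver arrays set to their detection floor or to the probe's own signal where that was higher. Epb42 was at least 106-fold higher in marrow, Sptb at least 80.8-fold, Ank1 at least 219-fold and Rhag at least 101-fold. The main probes of Rhd and Kel were above background on 1 of 4 unbled liver arrays, the same array, 0 h replicate 4. The Rhd coding probe was above background on all 4, with means of 4.22 in marrow and -3.03 in liver.

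At 48 h after bleeding, the fitted change in marrow was above 0 for 8 of 8 genes (50.3% of all 21399 genes tested). It ran from 0.21 for Epb41 to 0.74 for Rhag, with a median of 0.52 against 0.0012 over all genes. Rhag was the only 1 called higher, where 1.23% of genes were called in either direction and 1.06% were called higher. At an unadjusted p under 0.05, 7 of 8 were higher (10.2% of all genes), and for 3 of 8, Slc4a1, Epb42 and Rhag, every 48 h array lay above every 0 h array (8% of all genes). At 24 h none was called by limma (1.01% of genes were), 1 of 8 (Rhag) had an unadjusted p under 0.05 and was higher (5.75% of genes), and for 0 of 8 did the groups separate upward (4.15% of genes). The fitted 24 h changes ran from -0.19 to 0.47 with a median of 0.15, against -0.02 over all genes. Above 0 were 6 of 8 (44.6% of all genes). Both comparisons use the same 4 unbled arrays, so they are not independent. In marrow RNA, more cells of a type and more RNA per cell cannot be told apart.

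**Figure D1:**
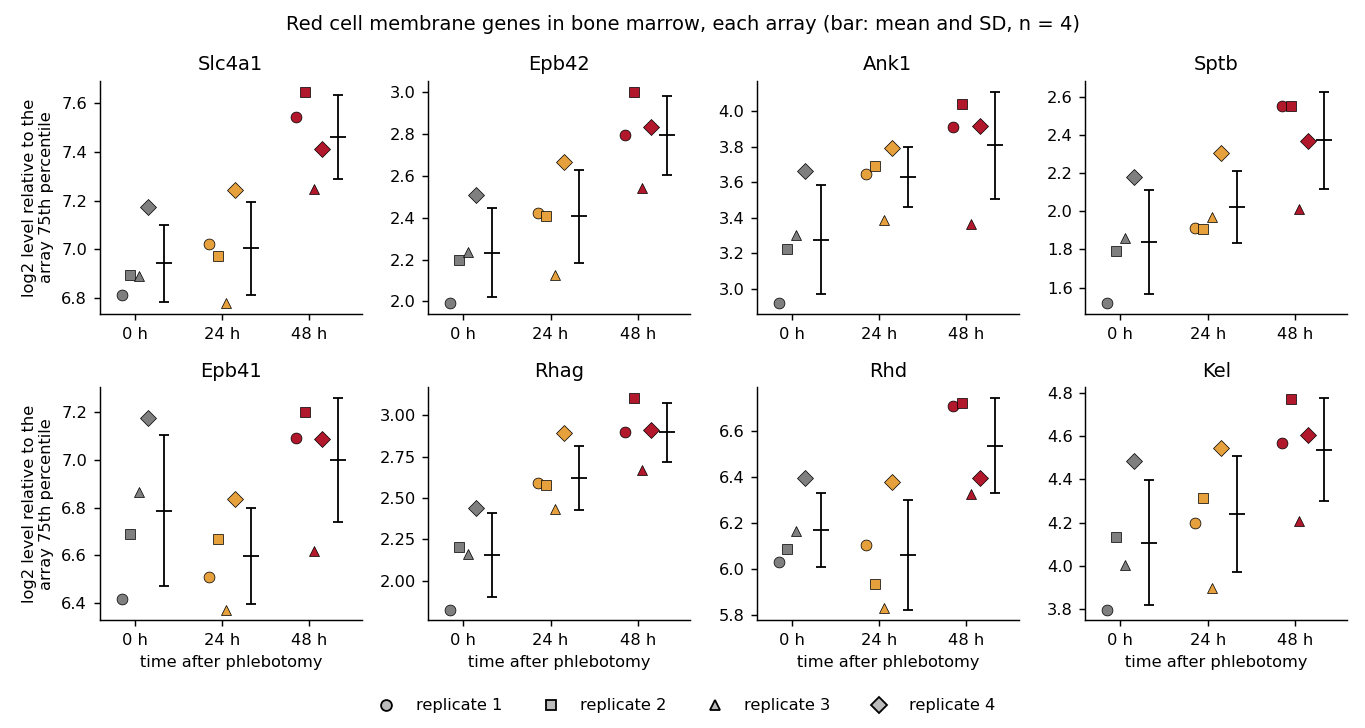
Level of each gene's main probe on the 12 marrow arrays (y axis, log2 relative to the array's 75th percentile, with its own range in each panel) by time after phlebotomy (x axis). Points are arrays, with the marker giving the replicate number, and bars give the mean and SD of 4 arrays. The 48 h arrays lie above all 0 h arrays for Slc4a1, Epb42 and Rhag and overlap them for the other 5 genes.

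Slc4a1 encodes band 3, the protein to which the anchors bind. In marrow it read 6.81, 6.89, 6.89 and 7.17 at 0 h, 7.02, 6.97, 6.78 and 7.24 at 24 h, and 7.54, 7.65, 7.25 and 7.41 at 48 h. Of the 24 h arrays 1 lay below and 1 above all 0 h arrays, while the lowest 48 h array stood above the highest 0 h array and also above the highest 24 h array. The change at 24 h was 0.06 (SE 0.12), which turned to -0.02 under quantile normalisation and -0.04 in the authors' value table. At 48 h the change was 0.52 (SE 0.12), a fold of 1.44, with a limma adjusted p of 0.0709. That p ranged from 0.0256 to 0.221 over 25 alternatives and was under 0.05 in 2 of them, array weights and an intensity-trended variance.

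Epb42 encodes protein 4.2, a transglutaminase relative without enzyme activity that braces band 3 against ankyrin. Its main probe read 1.99, 2.20, 2.23 and 2.51 at 0 h, 2.42, 2.41, 2.12 and 2.67 at 24 h, and 2.80, 3.0, 2.54 and 2.83 at 48 h. The lowest 48 h array was just above the highest 0 h array, so the groups did not overlap. The change was 0.17 (SE 0.14) at 24 h and 0.56 (SE 0.14) at 48 h, the latter with a limma adjusted p of 0.0888. A second Epb42 probe, further from the 3' end, changed by 0.22 (SE 0.22) at 48 h, and its groups overlapped.

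Ank1 encodes ankyrin-1, the adaptor between band 3 and beta-spectrin. The main probe read 2.92, 3.23, 3.30 and 3.66 at 0 h, 3.65, 3.69, 3.39 and 3.79 at 24 h, and 3.91, 4.04, 3.36 and 3.92 at 48 h. At 48 h 3 of the 4 arrays stood above every 0 h array, and replicate 3 fell back among them. The change was 0.35 (SE 0.18) at 24 h and 0.53 (SE 0.18) at 48 h, with limma adjusted p of 0.440 and 0.173. All 5 Ank1 probes were higher at 48 h, by 0.46 to 0.65. The junction probes shown with their sequences changed by 0.46 (SE 0.19) and 0.65 (SE 0.15), and 1 probe of the 5 had groups that did not overlap.

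Sptb encodes the erythroid beta-spectrin. Its main probe read 1.52, 1.79, 1.86 and 2.18 at 0 h, 1.91, 1.91, 1.97 and 2.30 at 24 h, and 2.55, 2.56, 2.01 and 2.37 at 48 h. Again 3 of the 4 arrays at 48 h were above the whole 0 h group and replicate 3 was not. The change was 0.19 (SE 0.16) at 24 h and 0.54 (SE 0.16) at 48 h, with a limma adjusted p of 0.136 at 48 h. The 2 Sptb probes disagreed at 24 h. A dimmer probe, 3' of the main one, changed by -0.55 (SE 0.25) at 24 h and by 0.14 (SE 0.25) at 48 h, and the mean of both probes gave -0.18 at 24 h.

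Epb41 encodes protein 4.1R, which fastens spectrin to actin at the junctions. Its main probe read 6.42, 6.69, 6.86 and 7.18 at 0 h, 6.51, 6.67, 6.37 and 6.84 at 24 h, and 7.09, 7.20, 6.62 and 7.09 at 48 h. The groups overlapped widely at both times. The change was -0.19 (SE 0.18) at 24 h and 0.21 (SE 0.18) at 48 h, and the 48 h value was 0.11 under quantile normalisation and 0.10 in the authors' value table. The 4 kept Epb41 probes gave 48 h changes of 0.21 to 0.53, of which the 5' probe shown above had 0.53 (SE 0.30) and the 3' coding probe 0.41 (SE 0.16). None of the 4 was called, and the difference between the 5' probe and the 3' coding probe was not tested.

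Rhag and Rhd encode 2 members of the Rh complex, in which the Rh-associated glycoprotein transports ammonia and is needed for the Rh polypeptide to reach the surface. Rhag read 1.82, 2.20, 2.16 and 2.44 at 0 h, 2.59, 2.58, 2.43 and 2.89 at 24 h, and 2.90, 3.11, 2.67 and 2.91 at 48 h. At 24 h 3 of the 4 arrays were above every 0 h array and replicate 3 (2.43) lay just under the highest of them (2.44). All 4 arrays at 48 h were above all 4 at 0 h. The change was 0.47 (SE 0.14) at 24 h, with a limma adjusted p of 0.185. At 48 h Rhag rose by 0.74 (SE 0.14), a fold of 1.67, with a limma adjusted p of 0.0357. Its exact permutation test, two-sided, gave p = 0.0286, which is the lower limit for 4 arrays against 4.

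The size of the Rhag change moved little with the processing, from 0.63 to 0.83 over 25 alternatives, but its adjusted p lay near the threshold. It ranged from 0.0121 to 0.135 and was under 0.05 in 12 of the 25. With the slide as a block it was 0.0967, and the change within slides 1, 2 and 3 was 0.89, 0.73 and 0.47. Leaving out any 1 of 0 h replicates 1, 2 and 3 or 48 h replicates 1, 2 and 4 or 24 h replicate 1 ended the call, with adjusted p from 0.0568 to 0.135.

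Rhd did not follow Rhag at 24 h in its fitted value. Its main probe read 6.03, 6.09, 6.16 and 6.39 at 0 h, 6.10, 5.93, 5.83 and 6.38 at 24 h, and 6.71, 6.72, 6.32 and 6.39 at 48 h. The change was -0.11 (SE 0.14) at 24 h and 0.37 (SE 0.14) at 48 h, with a limma adjusted p of 0.229 at 48 h. The coding probe shown above gave -0.12 (SE 0.14) and 0.41 (SE 0.14). The difference between Rhag and Rhd was not tested.

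Kel encodes the Kell glycoprotein, a surface endopeptidase and blood group antigen. Its main probe read 3.80, 4.14, 4.01 and 4.49 at 0 h, 4.2, 4.31, 3.90 and 4.54 at 24 h, and 4.57, 4.77, 4.21 and 4.61 at 48 h. At 48 h 3 of 4 arrays stood above the 0 h group and replicate 3 lay inside it. The change was 0.13 (SE 0.18) at 24 h and 0.43 (SE 0.18) at 48 h. The coding probe of Kel gave 0.52 (SE 0.14) at 48 h with groups that did not overlap (lowest 48 h array 3.37, highest 0 h array 3.36) and a limma adjusted p of 0.112 in the test of every probe.

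**Figure D2:**
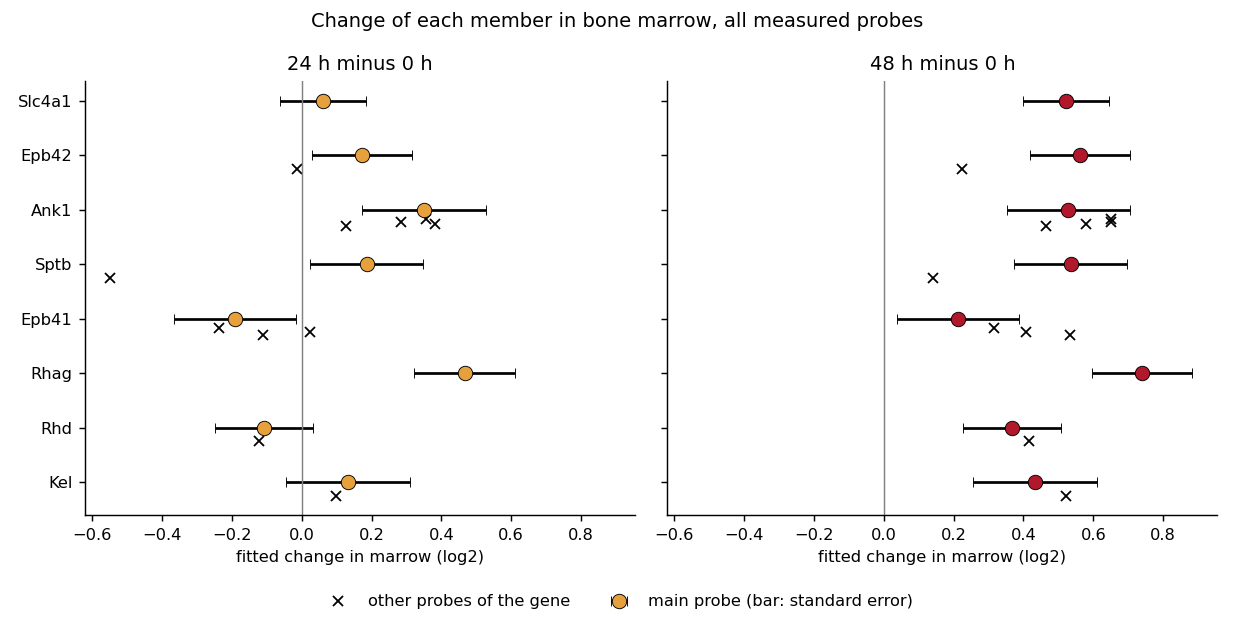
Fitted change in marrow (x axis, log2) of each gene (y axis) at 24 h (left) and 48 h (right) against 0 h. Filled points are main probes with their standard error and crosses are the gene's other probes. At 48 h all 19 measured probes lie right of 0, between 0.14 and 0.74, and at 24 h 12 lie right and 7 left.

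From 24 h to 48 h the fitted change was again above 0 for 8 of 8 genes (57.8% of all genes). It ran from 0.18 for Ank1 to 0.47 for Rhd, with a median of 0.37 against 0.03 over all genes. None was called by limma, where 0.00467% of genes were, and 4 of 8 had an unadjusted p under 0.05 and were higher (5.87% of genes). Slc4a1 was the 1 gene whose 48 h arrays all lay above all 24 h arrays (2.8% of genes), with a change of 0.46 (SE 0.12). By main probe, Rhag and Ank1 had larger fitted changes from 0 h to 24 h than from 24 h to 48 h, whereas the other 6 had theirs after 24 h. For Ank1 this depended on the probe. Its junction probes changed more after 24 h, by 0.13 then 0.34 and by 0.28 then 0.37. The remaining Ank1 probes went with the main one. The intervals before and after 24 h share the 24 h arrays, and the difference was not tested.

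The 8 genes shared their spread from mouse to mouse. At 0 h, replicate 1 was the lowest array for 8 of 8 genes and replicate 4 the highest for 8 of 8. Replicate 4 was the highest of the 24 h arrays for 8 of 8 and replicate 3 the lowest for 7 of 8. At 48 h replicate 2 was highest and replicate 3 lowest, each for 8 of 8. Across the 12 marrow arrays Pearson's r between pairs of the genes ran from 0.58 to 0.97 (28 pairs, median 0.87), and from 0.77 to 0.98 after the mean of each time was removed. All pairs share the same RNA samples and scaling, so the 8 genes are not 8 independent readings of a time.

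**Figure D3:**
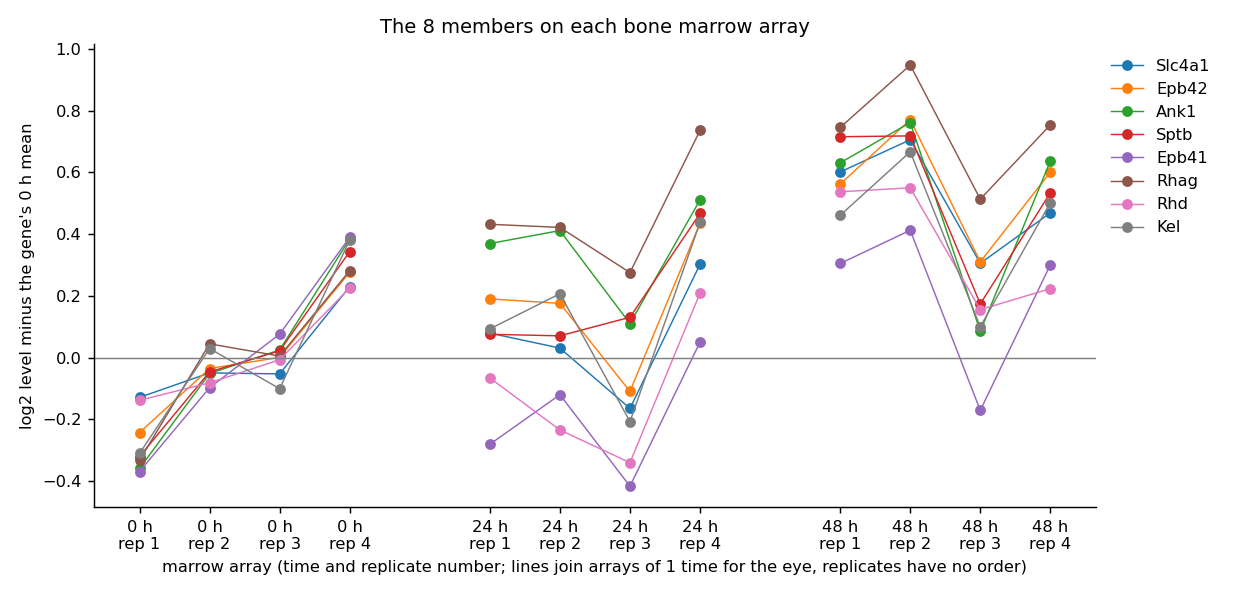
Level of each gene's main probe on every marrow array minus the gene's own 0 h mean (y axis, log2), by array (x axis, time and replicate number). Each colour is 1 gene, and lines join arrays of 1 time only to guide the eye. The 8 genes move together from array to array, with 48 h replicate 3 below the other 48 h arrays for all 8.

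The array lowest in these genes was at each time the one with the highest summed level of 8 neutrophil markers. Those sums were 2779 on 0 h replicate 1, 2423 on 24 h replicate 3 and 2578 on 48 h replicate 3. By group the sums ran from 1931 to 2779 at 0 h, 1899.9 to 2423 at 24 h and 1919.5 to 2578 at 48 h, so the groups overlapped. The median fitted change of the neutrophil markers at 48 h was -0.21 and none of 8 was called. Markers of B cells were lower at 48 h by fitted value for 8 of 8 (median -0.47), and none was called. At an unadjusted limma p under 0.05 there was 1 of 8 (16.0% of all genes). At 24 h 0 of 8 were above 0 (median -0.68) and none was called, but 6 of 8 had an unadjusted p under 0.05 (12.6% of all genes). Of T and NK cell markers 6 of 6 were below 0 at 48 h (median -0.43) and none was called, while 2 were called lower at 24 h (99 of all 21399 genes). For 4 of 6 all 48 h arrays lay below all 0 h arrays (1004 of 21399 genes). In the authors' value table and under normexp, 1 of the 6 was above 0 at 48 h. Monocyte and macrophage markers had 0 of 7 above 0 (median -0.24) and markers of stroma and endothelium 2 of 8 (median -0.50), none of them called. What part the mix of marrow cells has in the changes of the membrane genes was not tested.

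Within slides, the 48 h arrays exceeded the 0 h arrays for 8 of 8 genes on slide 1 (median change 0.70), 8 of 8 on slide 2 (0.45) and 6 of 8 on slide 3 (0.21). The genes below 0 on slide 3 were Epb41 (-0.09) and Rhd (-0.0023). At 24 h the count was 7 of 8, 6 of 8 and 1 of 8 on the 3 slides. Slide 3 held 0 h replicate 4, the unbled array highest in all 8 genes, and slide 1 held 0 h replicate 1, the unbled array lowest in all 8. Each slide held only 1 or 2 marrow arrays per time.

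The genes whose marrow levels followed the 8 most closely were Rnf123, Marchf8, Cachd1, Slc43a1 and Art4, with Pearson's r of 0.99, 0.98, 0.98, 0.98 and 0.98 to the mean of the standardised members over 12 arrays. Art4 carries the Dombrock blood group and Slc43a1 is an amino acid transporter. Rnf123 and Marchf8 are ubiquitin ligases. Their 48 h changes were 0.52, 0.32, 0.40, 0.52 and 0.55 in that order, none of them called. Among all genes, with the members left in, Epb42 ranked 2, Kel 10, Sptb 18 and Slc4a1 20, while Ank1, Rhag, Rhd and Epb41 ranked 131, 177, 250 and 441. Each member is part of that mean, so its rank is partly set in advance. Rhag, the member with the largest 48 h change, had r of 0.91 to it, and Epb41, the lowest ranked member, 0.85.

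Of the other parts of the spectrin skeleton, 7 of 10 genes had a fitted 48 h change above 0 in marrow (median 0.28), 1 was called higher and none lower. Over all genes in marrow at 48 h, 50.3% were above 0 and 1.06% were called higher. The same shares apply to the marrow lists below. The gene called was Add2, a beta-adducin that caps actin at the junctions, which rose by 0.70 (SE 0.14, limma adjusted p 0.0405). Tmod1, the tropomodulin that caps the other end of actin, had the largest fitted change at 0.76 (SE 0.22), but its adjusted p was 0.130. The Add2 call did not hold under median scaling, where none of the 10 was called. Tpm3 and Add3 had the lowest values, -0.27 and -0.21, neither called.

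Surface glycoproteins of red cells gave 3 of 12 called higher and none lower, with 9 of 12 above 0 and a median of 0.41. Ackr1, the Duffy antigen and chemokine receptor, rose by 0.48 (limma adjusted p 0.0401), Bsg, or basigin, by 0.52 (0.0439) and Icam4, an integrin ligand, by 0.59 (0.0485). Cd44 and Bcam had the lowest fitted values, -0.24 and -0.18. Under median scaling none of the 12 was called, and under quantile normalisation 1 was.

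Among membrane transporters 14 of 19 were above 0 at 48 h (median 0.15), with 2 called higher and none lower. Abcg2, a porphyrin exporter, rose by 0.70 (limma adjusted p 0.0439) and Abcb6, another porphyrin transporter, by 0.54 (0.0365). Under median scaling none of the 19 was called. Slc2a1, the glucose transporter GLUT1, and Slc12a7 had the lowest fitted values, -0.38 and -0.31, neither called.

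Paralogs of the 8 genes are mostly used by other cells. In marrow 6 of 19 measured paralogs were above 0 at 48 h, with a median of -0.13 and none called by limma. An unadjusted p under 0.05, in either direction, was found for 6 of the 19 (16.0% of all genes). The lowest were Rhcg, an ammonia transporter of epithelia (-0.46, SE 0.18), and Epb41l3 (-0.41, SE 0.13). Tgm2, the tissue transglutaminase related to Epb42, was called at 24 h, where it rose by 0.59 (limma adjusted p 0.0331), and gave 0.38 at 48 h with an adjusted p of 0.131. The difference between the members and their paralogs was not tested.

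Genes that mark red cell precursors gave the context. Of 8 enzymes of heme synthesis 8 were above 0 at 48 h (median 0.51) and 3 rose, among them Cpox by 0.69 and Alad by 0.56. Under quantile normalisation and in the authors' value table all of them were again above 0 but none was called. Of 10 erythroid transcription factors all were above 0 (median 0.42) and 1, Tal1, rose by 0.63 (limma adjusted p 0.0203). Late erythroblast genes gave 7 of 8 above 0 with a median of 0.35 and none called, with Trim10 at 0.68 and Xpo7 at 0.67. Of 6 globin genes 6 were above 0 (median 0.04, highest 0.38 for Ahsp) and none was called, while 4 were above 0 under quantile normalisation and 3 in the authors' value table. Early progenitor genes, Kit and Gata2 among them, had 1 of 6 above 0 and a median of -0.10.

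In liver, 3 of the 8 genes could be tested, Slc4a1, Epb41 and Rhd, and none was called at 24 h, at 48 h or between them by limma, as for all 19649 genes (0% at each step). At an unadjusted p under 0.05 there were 1 of 3 at 24 h (Slc4a1, 10.9% of all genes), 2 of 3 at 48 h (Slc4a1 and Rhd, 6.44% of genes) and 0 of 3 between 24 h and 48 h (7.63% of genes). Of the 20 probes, 4 were kept in liver, and 7 were not well above background on any of the 12 liver arrays. Rhag and both Sptb probes were among these 7.

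Slc4a1 in liver read -3.40, -2.88, -3.46 and -1.01 at 0 h, -1.20, -0.91, -1.68 and -2.35 at 24 h, and -1.78, -0.78, -0.75 and -0.79 at 48 h. Of the unbled arrays 3 lay below every bled array, while 0 h replicate 4 lay among the bled ones. The change was 1.16 (SE 0.51) at 24 h and 1.66 (SE 0.51) at 48 h, with limma adjusted p of 0.446 and 0.626. Without 0 h replicate 4 the 48 h change was 2.22 and the adjusted p 0.213, and with normexp background correction the change was 0.97. Within slides 1, 2 and 3 the 48 h change was 1.36, 2.69 and 0.22.

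Some red cell transcripts in the liver samples moved beside Slc4a1 and others did not. Ahsp, the chaperone of alpha-globin, read -4.38, -3.98, -4.84 and 0.07 at 0 h, -1.59, -1.62, -2.22 and -3.56 at 24 h, and -2.35, -1.33, -1.12 and -1.0 at 48 h. The same array, 0 h replicate 4, was the high one among the unbled, and 24 h replicate 4 was the lowest of its time for both genes. All 6 globin list genes were above 0 at 48 h in liver (median 0.87, and 0.86 to 0.93 under the other scalings), none was called, and for 5 of 6 all 48 h arrays lay above all 0 h arrays (1.77% of genes). The summed globin level ran from 349 to 430 at 0 h, from 513 to 555 at 24 h and from 505 to 819 at 48 h. Heme synthesis genes had 3 of 8 above 0 at 48 h in liver (median -0.06) and late erythroblast genes 3 of 6 (median 0.0046), none of them called. Alas2, the erythroid enzyme that starts heme synthesis, ran from 4.01 to 4.48 at 0 h and from 3.80 to 4.09 at 48 h. What part blood held in the liver has in the Slc4a1 values was not tested.

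**Figure D4:**
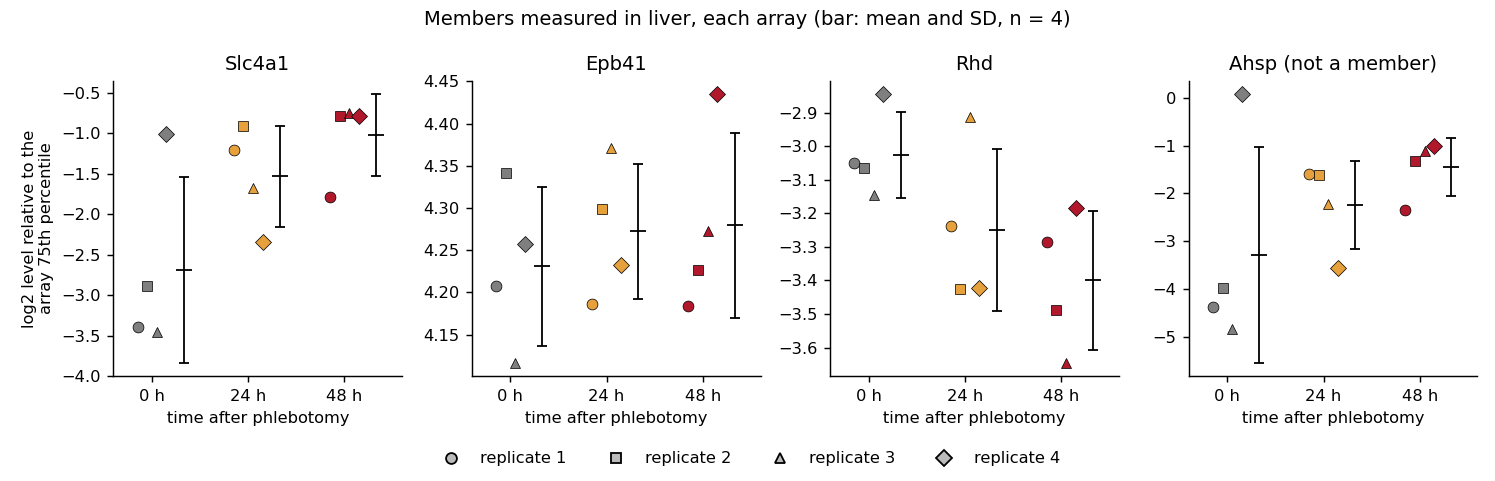
Level on the 12 liver arrays (y axis, log2 relative to the array's 75th percentile, with its own range in each panel) of the 3 genes tested in liver and of Ahsp, by time (x axis). Points are arrays and bars the mean and SD of 4 arrays. The unbled replicate 4 stands high for Slc4a1 and Ahsp, and Epb41 spans only 4.12 to 4.43.

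The main Epb41 probe in liver ran from 4.12 to 4.34 at 0 h, 4.19 to 4.37 at 24 h and 4.18 to 4.43 at 48 h. The changes were 0.04 (SE 0.08) and 0.05 (SE 0.08), and the 95% interval at 48 h was -0.12 to 0.22. That interval takes in the marrow change of 0.21 at 48 h. The second Epb41 probe kept in liver changed by 0.07 (SE 0.12) at 24 h and 0.23 (SE 0.12) at 48 h, with 3 of 4 arrays at 48 h above every 0 h array and no call. The mean of both probes changed by 0.14 at 48 h.

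Rhd was tested in liver through its coding probe, the 1 of its 2 probes kept there. It read -3.05, -3.07, -3.15 and -2.85 at 0 h, -3.24, -3.42, -2.91 and -3.42 at 24 h, and -3.29, -3.49, -3.64 and -3.18 at 48 h. All 48 h arrays lay below all 0 h arrays (2.44% of genes), with a change of -0.37 (SE 0.13) and a limma adjusted p of 0.678. In marrow the same probe gave 0.41. The other Rhd probe, the main one in marrow, was above background on 1 unbled liver array, 2 at 24 h and 2 at 48 h. Its liver group means, in order of time, were -5.38, -4.66 and -4.03, so by mean the 2 probes moved in opposite directions. On 0 h replicate 4 it read -1.94, against -6.11 or lower on the remaining unbled arrays, where the coding probe ranged only from -3.15 to -2.85. The lower fitted value at 48 h, which was not called, thus rests on the coding probe alone. Which probe follows Rhd in liver was not tested.

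Of the members below the liver's filter, Epb42 was above background on 1 array, 48 h replicate 3 (-2.18), where the other 11 arrays lay at -6.12 or lower. Kel was above background on 0 h replicate 4 and 24 h replicate 2. The main Ank1 probe was above background on 24 h replicate 2 alone.

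The tissues' responses were compared directly by the interaction of tissue and time. It is given for Slc4a1 and Epb41 alone, since the main probes of the other 6 genes were not well above background on most liver arrays. Neither was called by limma at 24 h (0.364% of genes were) or at 48 h (0.413% of genes), and neither had an unadjusted p under 0.05. For Slc4a1 the marrow response was smaller than the liver response by fitted value, by -1.09 (SE 0.56) at 24 h and -1.14 (SE 0.56) at 48 h. Without liver 0 h replicate 4 these were -1.65 and -1.70, and with normexp background correction -0.57 and -0.46. For Epb41 the same differences were -0.23 (SE 0.20) and 0.16 (SE 0.20).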

How the data were processed

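Each of 24 samples gave 1 one-colour scanner file. Processed signal intensity was deposited by the authors after Agilent Feature Extraction 10.10.1.1, per the submitters' processing notes. The deposited series table holds the authors' normalised log2 values and served as an alternative. From the intensity, the log2 of the processed signal minus each array's 75th percentile was computed, with 3671 control spots and outlier spots left out of probe means. A probe entered the tests where some group had all 4 of its arrays well above background. Genes were named through RefSeq accessions or symbols, otherwise by the file. Tests used limma 3.58.1 in R 4.3.3 with lmFit and eBayes, fitting the 3 times of a tissue together, or both tissues for comparisons between them, with p-values adjusted by Benjamini-Hochberg over all genes at a threshold of 0.05. Exact two-sided permutation tests compared single members. The code was tested on simulated data. The members and gene lists were chosen with earlier results of these data known. Named genes are all members, list genes past the threshold or with the 2 largest changes in each direction, and the 5 genes nearest the members' shared pattern. Alternatives were other scalings, background corrections, filters, probe rules, blocks, variance models and arrays left out. One of them, testing every kept probe, was chosen after seeing the data. Values of some list genes are not reported here.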

Additional observations from a re-analysis of the deposited data

Results flagged for a closer look

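Among 69 groups of 4 arrays of a member's probe that were checked, 3 (4.35%) held an array far from the other 3, where chance flags about 1 in 20 groups. Slc4a1 in liver at 48 h read -1.78 on replicate 1 and -0.79 to -0.75 on the others. The main Sptb probe in marrow at 24 h read 2.30 on replicate 4 and 1.91 to 1.97 on the others. The first Ank1 junction probe in marrow at 0 h read -3.75 on replicate 1 and -3.36 to -3.29 on the others. The Sptb and Ank1 arrays were also the highest and the lowest array of their time for all 8 members.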

How the results depend on the processing

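With 4 arrays per group, changes of the size seen here lay near the threshold. The count of members called in marrow at 48 h was 1 (264 of all genes). It became 0 under median scaling, quantile normalisation, the authors' value table or no filter on dim probes. The slide as a block, or only the 2 groups in the fit, also gave 0. With an intensity trend and robust variance it was 2 (Rhag, Slc4a1), where 391 of all genes were called. With array weights it was 3 (Rhag, Slc4a1, Epb42), where 812 of all genes were called. Leaving out 1 array gave 0 to 1. The 8 fitted changes at 48 h stayed above 0 in all 25 alternatives. Over all genes, the count called in marrow at 48 h was 264, and ranged from 98 without 48 h replicate 2 to 812 with array weights. For the 48 h interaction normexp correction gave 1 member called, Rhag, which the main fit did not call. The main fit called 0.413% of all genes, a share that is not of the normexp fit. Rhag was above background on 0 of 12 liver arrays, so that call sets its marrow change against floor values. For unbled tissues, 3 members passed the filter of every array above background, and all 3 were called. The main fit, with its looser filter, called 80.2% of all genes. Single values that changed sign were Slc4a1 in marrow at 24 h (-0.021 by quantile normalisation, -0.037 in the authors' value table, and -0.018 without 24 h replicate 4 to 0.14 over arrays left out), Sptb at 24 h (-0.18 as the mean of its probes) and Epb41 in liver. With arrays left out, Epb41 ran from -0.0030 (without 48 h replicate 4) to 0.085 at 48 h and from -0.044 (without the same array) to 0.040 between 24 h and 48 h, where leaving out 24 h replicate 1 or 4 also gave values below 0 (-0.021 and -0.0058).

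The labels number the replicates alike in each group without saying what a number shares. Deviations of same-numbered arrays correlated above 0.1 in 5 of 12 pairs of times in marrow, 3 of 12 in liver and 7 of 12 between marrow and liver, and arrays correlated best with their own number in 5, 4 and 9 of 12. Not every pair passed 0.1, so no pairing was used in the fits reported. Between the tissues all 12 correlations were above 0. Same-numbered marrow and liver arrays of a time also lay on the same slide, so a shared mouse and a shared slide cannot be told apart. With the number at each time taken as a mouse, the interaction of tissue and time called 0 members, and 10 and 11 of all genes at 24 h and 48 h in place of 83 and 94. With the replicate number as a block, 1 member was called in marrow at 48 h, with an adjusted p of 0.0490 for Rhag by limma, and the calls over all genes were 100 in place of 264.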
